A study of Mus musculus with 15 samples.

Results

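Glycolysis breaks glucose down to pyruvate in the cytosol, and a large share of its enzymes is encoded by genes that hypoxia-inducible factor can raise. The 31 genes described here cover that route and its hypoxia-responsive surroundings: glucose and lactate transporters, the glycolytic enzymes with several isozymes per step, lactate dehydrogenase, pyruvate dehydrogenase kinases, the factor gene Hif1a, its targets Bnip3 and Vegfa, and Bpgm. They were chosen by name from the known pathway, with earlier results of these data known. All 31 were found among the 45232 counted genes by their Ensembl identifiers. All 31 passed the filter on low counts, as did 17834 genes in all.

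In the pathway, glucose enters the cell through the Slc2a transporters and is trapped by hexokinases. Phosphofructokinase commits it to breakdown, the lower enzymes yield ATP and pyruvate, and lactate dehydrogenase turns pyruvate into lactate, which leaves through the Slc16a transporters. Pyruvate dehydrogenase kinases hold pyruvate back from the mitochondria, and HIF-1 raises many of these genes when oxygen is low. Long-lived blood stem cells reside in a poorly oxygenated marrow niche and are known for their reliance on glycolysis and on Pdk genes. The activity of HIF-1 is set mainly by the breakdown of its protein, so that the Hif1a mRNA level is not a measure of it.

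Lineage-negative Sca-1+ c-Kit+ (LSK) cells, a marrow fraction rich in stem cells and their first progeny, gave 15 sequenced libraries, 3 in each of 5 groups. Donor cells carried conditional Jak2 V617F and Idh2 R140Q alleles under the interferon-inducible Mx1-Cre on a C57BL/6 background (C57BL/6J in the methods), were transplanted together with CD45.1 WT cells, and were sorted back from the recipients as CD45.2+ LSK cells. Recipients received vehicle, AG221 (an inhibitor of mutant IDH2, 40 mg/kg), ruxolitinib (an inhibitor of JAK kinases, 60 mg/kg) or both drugs by gavage for 21 to 28 days, with the last dose about 1.5 h before sacrifice. The fifth group was WT CD45.2+ LSK cells, for which no treatment is given. All 4 mutant groups therefore share both alleles, the Cre and the transplant, and the study's methods also name a higher AG221 dose. Whether a library came from a single mouse or from pooled cells is not stated, so that p-values measure the spread between libraries.

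The total count ran from 18836625 to 32174287 reads on genes per library. Kit was present throughout, at 740 to 1552 CPM (counts scaled to a common library size), and Ly6a, which encodes Sca-1, at 13.1 to 165.8 CPM. The names of vehicle, AG221 and ruxolitinib replicates carry the letter A, whereas combination and WT replicates carry B. What the letter stands for is not given, and between groups of different letters the condition and whatever the letter marks cannot be told apart. The WT libraries had 455 to 511 CPM of Xist and at most 0.101 CPM of the Y-linked Ddx3y, whereas the mutant libraries had at most 19.5 CPM of Xist and at least 124 CPM of Ddx3y, so that sex and genotype cannot be told apart either.

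Within the mutant groups, AG221 replicates A8 and A10 and ruxolitinib replicate A16 stood apart from their group mates. Their pairwise chi-square per degree of freedom against the remaining library or libraries of the group lay between 101 and 174. It was 25.7 between A8 and A10 and 15.0 between ruxolitinib A14 and A17. Pairs within WT and within the combination lay between 22.3 and 46.4, and vehicle pairs between 75.5 and 79.0. Across 17751 genes, which are not independent, the deviation of a library from the mean of all libraries had a correlation with GC content of -0.25 in A8, -0.20 in A10 and -0.13 in A16, against 0.085 in A9, 0.16 in A14 and 0.13 in A17. Idh2 was at 55.1, 65.9 and 124 CPM in A8, A10 and A16 and at 212 to 568 CPM elsewhere. The 212 CPM were those of vehicle A1, against 368 in A3 and 461 in A4. Vehicle A1 was also the lowest vehicle library for Pdk1, Pdk2, Pdk3, Hif1a and Slc16a1. Its correlation with GC content was -0.051. Comparisons with vehicle are thus not free of such a library. Results that rest on A8, A10 and A16 are given with and without these 3 libraries. With all 3 left out, an alternative chosen after the data were seen, AG221 had 1 library, which was then assumed to vary like the other groups.

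Reads of the 31 genes made up 0.677% to 0.742% of all counts in WT, 0.847% to 0.955% with vehicle, 1.04% to 1.26% with AG221, 0.934% to 0.999% with ruxolitinib and 0.746% to 0.849% with the combination. The AG221 libraries lay above all others, and the WT libraries below all others. Per kilobase of exon, the mean over all libraries was highest for Ldha (593 CPM per kb), followed by Pkm (270.1), Aldoa (235), Tpi1 (222), Gapdh (207), Eno1 (117) and Gpi1 (90.8). Among isozymes on the same per-kilobase scale, Aldoa far exceeded Aldoc (1.82), Eno1 exceeded Eno2 (0.324), and Ldha exceeded Ldhb (22.3). Hk3 (76.3) and Hk1 (66.9) lay above Hk2 (5.67), and Pfkl (49.8) above Pfkm (25.7) and Pfkp (12.6). These means pool groups that differ. Gapdh was below Tpi1 in WT (118 and 157 CPM per kb) and above it with AG221 (327 and 309.6), and Ldhb was at 45.8 in WT and 11.8 with vehicle. These LSK cells thus expressed mainly Ldha, Pkm, Aldoa and Eno1, together with Hk1, Hk3 and Pfkl. In such bulk samples, fewer cells of a type and less RNA per cell cannot be told apart.

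The 31 genes held more higher calls against WT with vehicle and with either drug alone than with the combination, as did all tested genes. Of all genes, 1.63% were higher with the combination, so that the counts of these groups cannot be compared with each other directly. Against WT, 13 of the 31 genes were higher and 3 lower with vehicle (edgeR's quasi-likelihood test, adjusted p under 0.05 over all genes), where 15.4% of all tested genes were higher and 17.9% lower. The higher genes were Hk1, Hk2, Hk3, Gpi1, Pfkl, Pfkp, Aldoa, Tpi1, Gapdh, Pgk1, Eno1, Pkm and Ldha, and the lower ones Aldoc, Ldhb and Pdk1. The median difference of the 31 genes was 0.40 on the log2 scale, beside -0.091 over all tested genes. With AG221, 11 genes were higher than in WT (background 22.2%) and 7 lower (28.5%), with a median of 0.31 beside -0.25. With ruxolitinib, 13 were higher (16.1%) and 4 lower (16.2%), with a median of 0.35 beside -0.14. The share called higher was above its background in all 3 comparisons, whereas the share called lower was below it.

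These 3 comparisons share the WT libraries and are therefore not independent of each other. With vehicle, the count of 16 called genes was 10 without vehicle replicate A1 and also without WT replicate B28 or B30, and under upper quartile scaling 9 genes were higher and 4 lower. With ruxolitinib, the count of 17 was 10 without WT replicate B30. The 7 lower genes of AG221 were called with all libraries. Their calls were lost without A8, A10 and A16, where AG221 had 1 library and most calls over all genes were lost too. Most of the higher genes were still called there. The differences of these 7 genes then lay between -2.31 and -0.66 on the log2 scale. Aldoc was at -2.31 (edgeR adjusted p = 0.084) and Ldhb at -1.16 (0.232), near their values with all libraries, whereas Pdk2 was at -1.29 and Pdk3 at -0.66, nearer 0.

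With the combination, few of the genes were called against WT, which does not show that they were at the WT level. Only Gpi1 and Eno1 differed from WT, both higher (background 1.63% higher and 1.61% lower), with a median over the 31 genes of 0.26 beside 0.038. An unadjusted p under 0.05 was found for 14 of the 31, and for 4529 of all 17834 genes tested. Among uncalled members, Ldha was at 0.76 ± 0.21 (SE), Gapdh at 0.55 ± 0.15 and Pgk1 at 0.56 ± 0.16, each with the combination libraries above the WT libraries. The count of 2 became 0 when any of combination replicates B25 and B26 or the 3 WT replicates was left out. It was 8 (4 higher and 4 lower) when combination and WT alone were fitted, and 5 under DESeq2. Calls over all genes moved too, from 579 to 1788 and 1800 in these 2 fits, and to between 88 and 415 in the fits that gave 0 with 1 library left out. Combination and WT replicates carry the same letter, and this comparison is free of the letter difference.

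**Figure D1:**
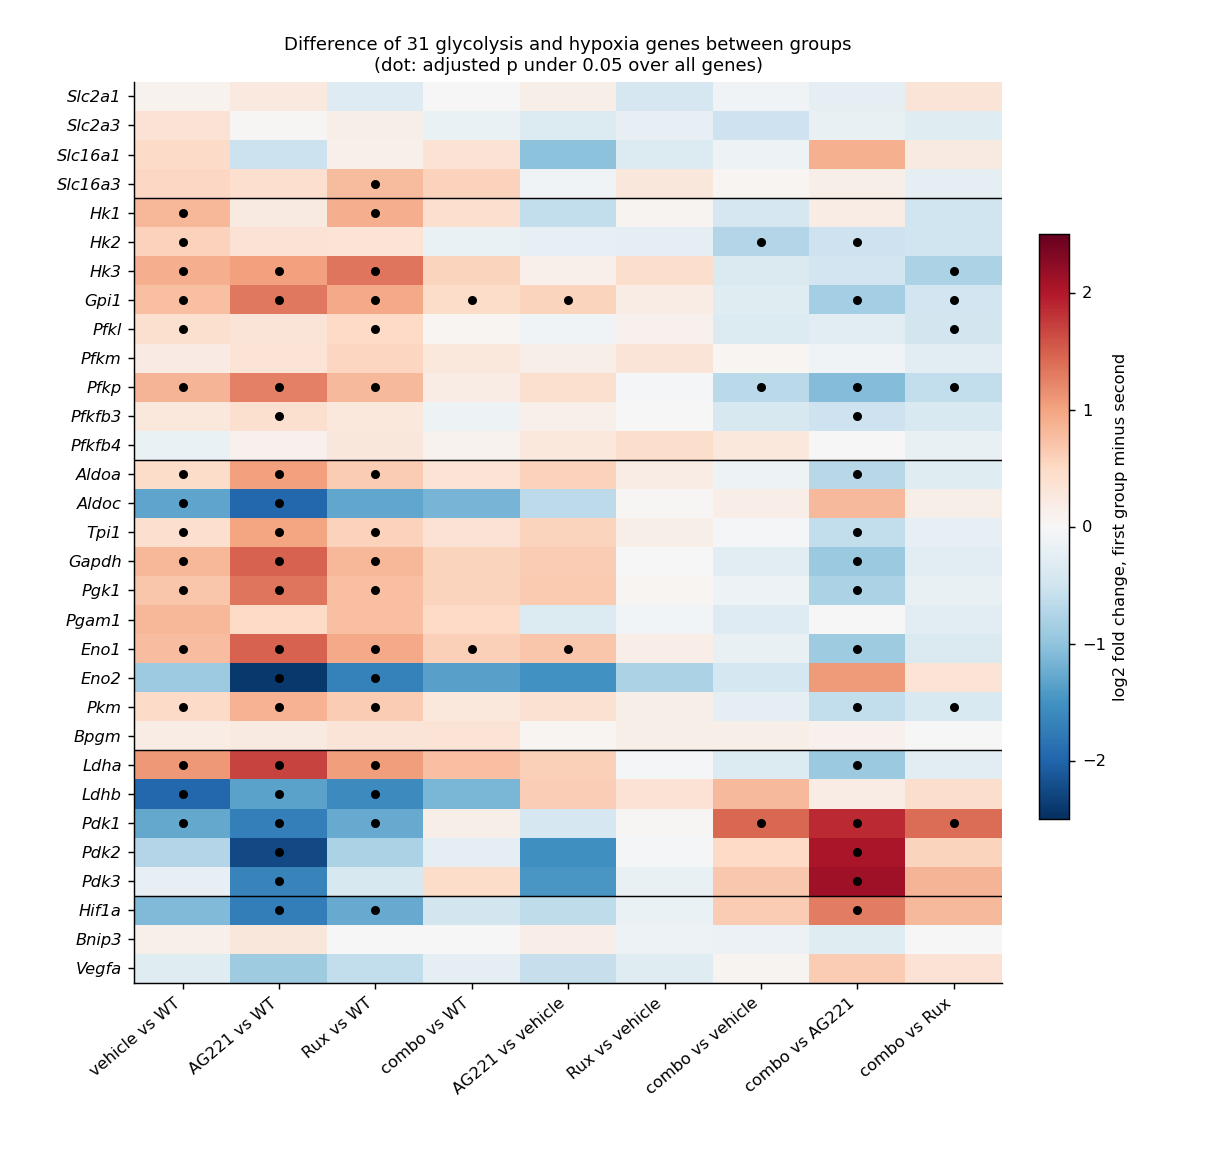
Heat map of the log2 fold change of each of the 31 genes (vertical axis, ordered by role, with lines between roles) in 9 comparisons of groups (horizontal axis), with red for higher and blue for lower in the first-named group and a dot where the adjusted p was under 0.05. Dots are dense in the 3 left columns (16, 18 and 17) and in combination against AG221 (15), and absent from ruxolitinib against vehicle.

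Either drug alone gave few calls against vehicle. With AG221, 2 genes were higher and none lower (background 0.471% and 0.516%), namely Gpi1 and Eno1. The median of the 31 was 0.12 beside -0.0065 over all genes. An unadjusted p under 0.05 was found for 14 of the 31, and for 4498 of all 17834 genes. With ruxolitinib, none of the 31 was called in either direction (0% and 0.0168% of all genes), and DESeq2 called 0 of them as well. Slc2a1 and Hk3, 2 of 31, had an unadjusted p under 0.05, beside 813 of all 17834 genes. The AG221 count depended on single libraries. It was 0 without vehicle A1, A3 or A4 or without AG221 A8 or A10, and 15 (9 higher and 6 lower) without AG221 A9, and with all libraries it was 10 under DESeq2 and 7 under upper quartile scaling. Calls over all genes moved too, from 176 to 4672 without A9, 2247 under DESeq2 and 738 under upper quartile scaling. They were 27 without vehicle A3 and 0 without vehicle A1 or A4 or AG221 A8 or A10.

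With both drugs together, Hk2 and Pfkp were lower and Pdk1 was higher than with vehicle, between groups whose replicate letters differ. These were the only 3 genes called (1 of 31 higher against a background of 8.28%, 2 lower against 4.21%), and the median was -0.13 beside 0.037. With so few calls, both shares are near the background. The count was 0 without vehicle A1 and without combination B24 or B25, and 4 without A8, A10 and A16.

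Against AG221 alone, the combination had 4 higher genes (background 18.9%) and 11 lower (14.3%), with a median of -0.19 beside 0.11. The higher genes were Pdk1, Pdk2, Pdk3 and Hif1a, and the lower ones Hk2, Gpi1, Pfkp, Pfkfb3, Aldoa, Tpi1, Gapdh, Pgk1, Eno1, Pkm and Ldha. Without A8, A10 and A16, AG221 had 1 library, and most of these calls were lost, as were most calls over all genes. The 11 lower genes then lay between -0.90 (Hk2) and -0.29 (Tpi1) on the log2 scale. The 4 higher genes lay between 0.52 (Hif1a) and 1.35 (Pdk1). Against ruxolitinib alone, Pdk1 was higher (8.5%) and Hk3, Gpi1, Pfkl, Pfkp and Pkm were lower (3.94%), with a median of -0.22 beside 0.014. That count of 6 was 0 without combination B24, 1 without B25, 2 without ruxolitinib A14 or A17 and 3 without A16, and it stayed at 6 without A8, A10 and A16 together.

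The departure of the combination from the sum of both single-drug changes was tested as an interaction. It was positive for Pdk1 (1 of 31, background 5.6%) and negative for Hk3, Gpi1, Pfkp, Aldoa, Tpi1, Gapdh, Pgk1, Eno1 and Pkm (9 of 31, background 2.82%). For these enzymes the combination was lower than the single-drug groups would give by addition. Of the 10 calls, 2 were left when the WT libraries were not in the fit. Without A8, A10 and A16, with 1 AG221 library, the calls were lost, as were nearly all calls over all genes. Without these 3, the term kept its sign for all 10, with Hk3 at -1.20, Gpi1 at -0.90 and Pkm at -0.72 near or beyond their values with all libraries, Tpi1 at -0.35 and Pdk1 at 0.999. The count was 1 without vehicle A3 or A4, AG221 A8 or A10, ruxolitinib A17 or combination B24 or B25, and 3 without ruxolitinib A16. Calls over all genes fell in these fits too, from 1502 with all libraries to between 44 (without B25) and 218 (without A16). They were 167 when the WT libraries were not in the fit.

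The transporters showed few differences. Slc2a1, the broadly expressed glucose transporter, ranged from 28.9 to 55.0 CPM over all libraries and was called in no comparison. Slc2a3, a glucose transporter of high affinity, had 165, 138 and 140.3 CPM in WT and 204, 259 and 108 with vehicle, a difference of 0.37 ± 0.27 (SE) on the log2 scale, and it was not called. Slc16a3, which exports lactate, had 9.14, 9.17 and 10.6 CPM in WT and 21.3, 11.3 and 17.5 with ruxolitinib. The ruxolitinib libraries lay above WT, and the difference was 0.79 ± 0.22 (edgeR adjusted p = 0.0186). That call was lost without ruxolitinib A14 or WT B28 or B30. Slc16a1, which carries lactate and pyruvate in either direction, had 119, 208 and 327 CPM with vehicle and 64.8, 200.1 and 57.6 with AG221. Its AG221 libraries A8 and A10 were the lowest of all 15, but the difference of -1.02 ± 0.43 did not pass (edgeR adjusted p = 0.167).

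Among the enzymes that prime glucose, the 3 hexokinases and both Gpi1 and Pfkp were higher with vehicle than in WT. Of 9 genes from hexokinase to phosphofructokinase, 6 were higher with vehicle, 4 with AG221, 5 with ruxolitinib and 1 with the combination, all against WT, and none was lower. The corresponding shares of all tested genes called higher were 15.4%, 22.2%, 16.1% and 1.63%, so that these counts cannot be compared with each other directly. Hk1 (ENSMUSG00000037012, chromosome 10, 62268855 to 62379908, GRCm38), which binds mitochondria, had 431, 373 and 387 CPM in WT and 711, 651 and 769.8 with vehicle. The groups did not overlap, at 0.84 ± 0.18 on the log2 scale (edgeR adjusted p = 0.00622). With AG221, Hk1 had 385, 502 and 511 CPM and did not differ from WT (0.23 ± 0.17, edgeR adjusted p = 0.281). Its AG221 libraries all lay below the vehicle libraries, but that difference of -0.61 ± 0.18 did not pass either (edgeR adjusted p = 0.0775).

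Hk3 (ENSMUSG00000025877, chromosome 13, 55005985 to 55021385), the hexokinase typical of myeloid cells, had 162, 154 and 157 CPM in WT, 319, 271 and 296 with vehicle, 288, 362 and 316 with AG221, 474, 339.7 and 388 with ruxolitinib and 213, 175 and 303 with the combination. All vehicle, AG221 and ruxolitinib libraries lay above WT, by 0.91 ± 0.18, 1.03 ± 0.18 and 1.35 ± 0.19 (edgeR adjusted p = 0.00546, 0.000968 and 0.000827). The combination was lower than ruxolitinib (log2 difference -0.80 ± 0.18, edgeR adjusted p = 0.0118), with combination replicate B26 close to the other mutant groups. This call was lost without combination B24 or B25 or ruxolitinib A14, and when combination and ruxolitinib alone were fitted.

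Hk2 (ENSMUSG00000000628, chromosome 6, 82725025 to 82774454), a hexokinase that HIF-1 can induce, was the hexokinase with the smallest spread relative to its mean within WT and within vehicle. It had 28.2, 28.6 and 28.5 CPM in WT, 43.8, 42.5 and 40.8 with vehicle and 23.95, 24.6 and 27.8 with the combination. The vehicle libraries lay above WT (log2 difference 0.57 ± 0.18, edgeR adjusted p = 0.0257), and the combination libraries lay below both. The combination was lower than vehicle (log2 difference -0.74 ± 0.18, edgeR adjusted p = 0.0154), and it differed from WT by -0.16 ± 0.18, which did not pass (edgeR adjusted p = 0.596). The single-drug groups were spread, with 33.7, 47.1 and 29.3 CPM with AG221 and 41.96, 31.1 and 35.5 with ruxolitinib, and the lowest value in each came from A10 and A16. The difference between combination and vehicle was lost without vehicle A1 (adjusted p = 0.0629), combination B24 (0.0768) or B25 (0.0642), while its size stayed between -0.85 and -0.69 over all alternatives.

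Gpi1 (ENSMUSG00000036427, chromosome 7, 34201330 to 34230336), which converts glucose 6-phosphate to fructose 6-phosphate, separated all 5 groups. It had 338, 336 and 361 CPM in WT, 576, 609.9 and 566 with vehicle, 957, 769 and 847 with AG221, 691, 661 and 652 with ruxolitinib and 431, 477 and 520.3 with the combination. No group overlapped another, in the rising order WT, combination, vehicle, ruxolitinib and AG221. Against WT, the difference was 0.76 ± 0.11 with vehicle, 0.95 ± 0.11 with ruxolitinib, 1.31 ± 0.11 with AG221 and 0.46 ± 0.11 with the combination (edgeR adjusted p = 0.000953, 0.000261, 1.09e-05 and 0.0391). AG221 was also higher than vehicle, by 0.56 ± 0.11 (edgeR adjusted p = 0.0458), a call that was lost without any single vehicle library and without A8 or A10. Combination and vehicle, neighbours in the order, differed by -0.29 ± 0.11, which did not pass (edgeR adjusted p = 0.101), and neither did ruxolitinib against vehicle.

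Pfkp (ENSMUSG00000021196, chromosome 13, 6579768 to 6648777), the platelet-type phosphofructokinase, was high with vehicle and either drug alone and near WT with the combination. It had 111, 101 and 101 CPM in WT, 193, 173 and 202 with vehicle, 335, 190.3 and 228 with AG221, 178, 195 and 174 with ruxolitinib and 109, 126 and 121 with the combination. The vehicle libraries were 0.86 ± 0.17 above WT (edgeR adjusted p = 0.00507) and did not overlap it. The combination was lower than vehicle (log2 difference -0.67 ± 0.17, edgeR adjusted p = 0.0205) and overlapped WT (0.19 ± 0.17, edgeR adjusted p = 0.505). The call against vehicle was lost without vehicle A1 (adjusted p = 0.0739) or A4 (0.0634) or combination B24 (0.096) or B25 (0.0531). Pfkl, the liver-type subunit and the most abundant of the 3 per kilobase, was higher than WT with vehicle (0.40 ± 0.13, edgeR adjusted p = 0.0342) and with ruxolitinib (0.51 ± 0.13, edgeR adjusted p = 0.015). Its vehicle call was lost in 9 alternatives, among them without A1, A4, B28 or B30. Pfkm, the muscle-type subunit, was called nowhere, and its highest value (153 CPM) was that of ruxolitinib A16.

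Pfkfb3 and Pfkfb4 make fructose 2,6-bisphosphate, the activator of phosphofructokinase. Pfkfb3 was higher with AG221 than in WT (0.39 ± 0.15, edgeR adjusted p = 0.0472), with 46.9, 52.96 and 42.9 against 39.5, 35.6 and 33.6 CPM, and lower with the combination than with AG221 (-0.52 ± 0.15, edgeR adjusted p = 0.0203). The AG221 libraries lay above both groups, though the call against WT was lost without AG221 A8 or A9 or any WT library. Pfkfb4 ranged from 9.23 CPM in vehicle A4 to 27.1 CPM in vehicle A3 and was called nowhere.

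**Figure D2:**
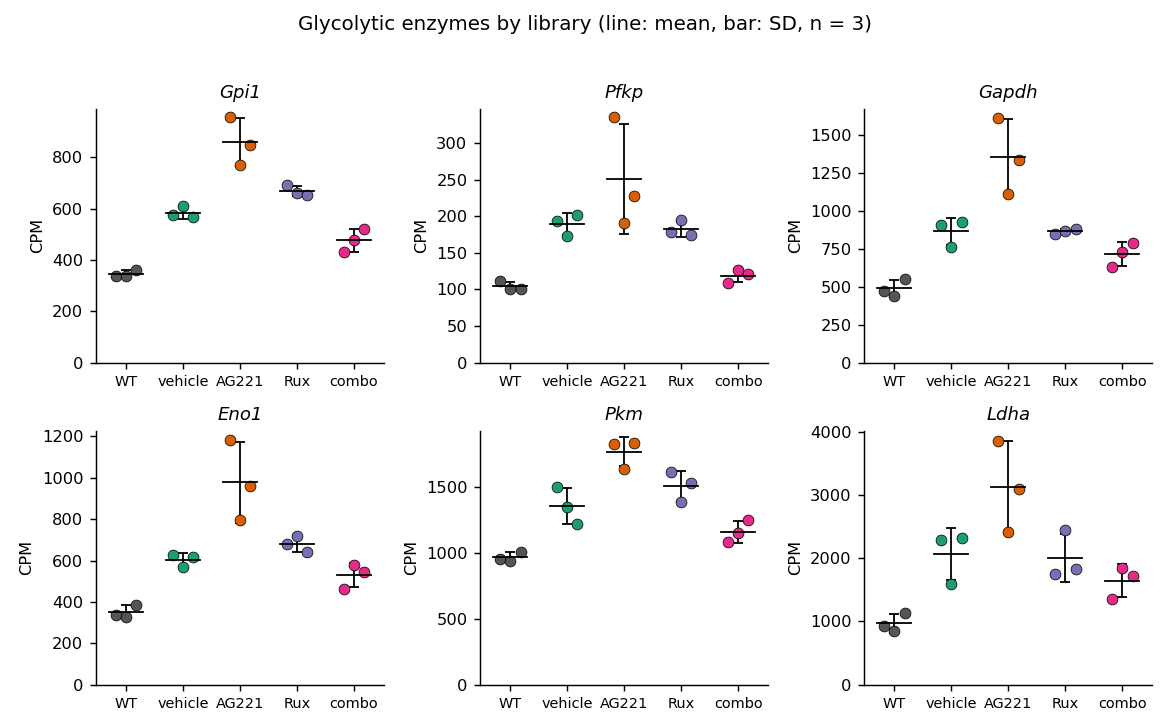
CPM (vertical axes, from 0) of Gpi1, Pfkp, Gapdh, Eno1, Pkm and Ldha in each library of the 5 groups (horizontal axes), with 1 point per library, a line for the mean and a bar for the SD (n = 3). In all 6 genes the vehicle, AG221 and ruxolitinib libraries lie above the WT libraries, and the AG221 mean is the highest.

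Of the 10 genes of the triose and lower part, 6 were higher than WT with each of vehicle, AG221 and ruxolitinib (background 15.4%, 22.2% and 16.1%). They were Aldoa, Tpi1, Gapdh, Pgk1, Eno1 and Pkm. With the combination only Eno1 was higher than WT (background 1.63%), and 6 of the 10 were lower with the combination than with AG221 (14.3%). As the backgrounds differ, these counts cannot be compared with each other directly. Gapdh (ENSMUSG00000057666, chromosome 6, 125161715 to 125166467), which oxidizes glyceraldehyde 3-phosphate, had 473, 440.1 and 552 CPM in WT, 907, 763 and 927 with vehicle, 1611, 1111 and 1331 with AG221, 844, 869 and 877 with ruxolitinib and 627, 727 and 788 with the combination. The AG221 libraries lay above all others, and the combination libraries between WT and AG221, with B26 above the lowest vehicle library. The difference from WT was 0.83 ± 0.15 with vehicle (edgeR adjusted p = 0.00336), 1.47 ± 0.15 with AG221 (4.76e-05) and 0.82 ± 0.15 with ruxolitinib (0.00316). The combination was lower than AG221 (log2 difference -0.92 ± 0.15, edgeR adjusted p = 0.00227), while its difference from vehicle, -0.28 ± 0.15, did not pass.

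Eno1 (ENSMUSG00000063524, chromosome 4, 150236721 to 150248879), enolase, had its group means in the order of those of Gpi1. It had 339, 329 and 388 CPM in WT, 629, 568 and 617 with vehicle, 1183, 795 and 958 with AG221, 679.7, 721 and 641 with ruxolitinib and 464, 579.8 and 547 with the combination. All 4 mutant groups lay above WT, by 0.78 ± 0.14 with vehicle, 1.48 ± 0.15 with AG221, 0.95 ± 0.14 with ruxolitinib and 0.59 ± 0.14 with the combination (edgeR adjusted p = 0.00381, 3.67e-05, 0.00144 and 0.0423). AG221 exceeded vehicle by 0.70 ± 0.14 (edgeR adjusted p = 0.0458), which was lost without A8 (adjusted p = 0.201) or A10 (0.142), without any vehicle library, with no filter on low counts and when AG221 and vehicle alone were fitted. Eno2, the neuron-type enolase, was near the lower end at 3.01, 3.74 and 2.72 CPM in WT and 0.4702, 0.985 and 0.327 with AG221, a difference of -2.42 ± 0.61 (edgeR adjusted p = 0.00653), so that the isozymes of this step differed in opposite directions.

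Pkm (ENSMUSG00000032294, chromosome 9, 59656368 to 59679375), pyruvate kinase, had 955, 937 and 1009 CPM in WT, 1497, 1345 and 1219.6 with vehicle, 1825, 1638 and 1833 with AG221, 1613, 1386 and 1527 with ruxolitinib and 1083, 1147 and 1249.95 with the combination. Vehicle was higher than WT by 0.49 ± 0.11 (edgeR adjusted p = 0.00865), and each mutant library exceeded each WT library. Pgk1 (ENSMUSG00000062070, chromosome X, 106187100 to 106203699), phosphoglycerate kinase, is X-linked, and it was 0.69 ± 0.16 higher with vehicle (edgeR adjusted p = 0.0091), in WT cells with Xist and mutant cells nearly without. Aldoa, the muscle-type aldolase, and Tpi1, triose phosphate isomerase, were higher with vehicle by 0.45 ± 0.13 and 0.42 ± 0.15 (edgeR adjusted p = 0.0224 and 0.0497). The Tpi1 call was lost in 12 alternatives and the Aldoa call in 7, upper quartile scaling, vehicle A1 and A4, and WT B28 and B30 among them. With AG221 both were higher by 1.03 ± 0.13 and 0.98 ± 0.16 (edgeR adjusted p = 0.000199 and 0.000497), and these calls held in every alternative run.

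Aldoc, the brain-type aldolase, was lower where Aldoa was higher. It had 11.4, 11.3 and 12.8 CPM in WT, 3.95, 8.52 and 1.697 with vehicle and 2.22, 2.39 and 4.44 with AG221. All mutant libraries lay below WT, with a log2 difference of -1.32 ± 0.48 with vehicle (edgeR adjusted p = 0.0497) and -1.96 ± 0.49 with AG221 (0.00624). The vehicle call was lost without vehicle A1 or A4 or any WT library. Pgam1, phosphoglycerate mutase, had 41.3, 130.03 and 46.2 CPM with AG221 and 113, 54.4 and 95.3 with ruxolitinib. The low values within these groups were those of A8, A10 and A16, and the gene was called nowhere. Bpgm, which makes the 2,3-bisphosphoglycerate of red cells, ranged from 22.2 to 42.8 CPM, highest in ruxolitinib A16, which also had the most Hba-a1 (196 CPM against at most 44.9 CPM elsewhere), and it was called nowhere.

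Several of these genes share exon sequence with other genes such as processed pseudogenes, and their counts are uncertain to that extent. The share of 50-base stretches of the longest annotated transcript found in transcripts of other genes was 72.2% for Eno1, 68% for Pgk1, 41.5% for Pgam1, 34.4% for Pkm, 27.2% for Gapdh, 27% for Ldhb, 21.9% for Bnip3, 16.6% for Ldha, 13.5% for Aldoa, 10.2% for Gpi1 and 7.51% for Tpi1. It was 0 for Hk1, Hk2, Hk3, Pfkp, Pdk1, Pdk2 and Pdk3. Overlap with a gene on the opposite strand covered 22.3% of the Bnip3 exons, 11.5% of Gpi1, 5.6% of Hif1a and 5.58% of Pfkp, and whether the counting used the strand is not stated.

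At the fork of pyruvate, both lactate dehydrogenase genes differed from WT, in opposite directions. Ldha (ENSMUSG00000063229, chromosome 7, 46841475 to 46855627), whose subunit favours the making of lactate, had 924, 851 and 1136 CPM in WT, 2288, 1595 and 2322 with vehicle, 3857, 2415 and 3097 with AG221, 1754, 2441 and 1828 with ruxolitinib and 1351, 1852 and 1721 with the combination. All mutant libraries lay above WT, and AG221 had the highest mean. The difference from WT was 1.09 ± 0.21 with vehicle, 1.69 ± 0.21 with AG221 and 1.05 ± 0.21 with ruxolitinib (edgeR adjusted p = 0.0045, 0.000178 and 0.00506), and all 3 calls held in every alternative run. With the combination it was 0.76 ± 0.21 and did not pass (edgeR adjusted p = 0.0621). The combination was lower than AG221 (log2 difference -0.93 ± 0.21, edgeR adjusted p = 0.0063) and did not differ detectably from vehicle (-0.33 ± 0.21, edgeR adjusted p = 0.341).

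Ldhb (ENSMUSG00000030246, chromosome 6, 142490249 to 142507957), whose subunit favours the return of lactate to pyruvate, had 71.3, 72.5 and 71.8 CPM in WT, 19.6, 30.6 and 5.21 with vehicle, 20.6, 32.2 and 32.7 with AG221, 19.8, 26.7 and 24.9 with ruxolitinib and 39.8, 28.5 and 29.1 with the combination. WT was tightly grouped, and every mutant library lay below it. The difference was -1.96 ± 0.43 with vehicle (edgeR adjusted p = 0.00772), a call that held in every alternative, -1.33 ± 0.43 with AG221 (0.0199) and -1.59 ± 0.43 with ruxolitinib (0.0163). With the combination it was -1.15 ± 0.42 and did not pass (edgeR adjusted p = 0.121).

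Promoter sequence is shown for Gapdh, Eno1, Ldha and Pfkp, the genes with the smallest p between vehicle and WT whose promoters hold the core of the hypoxia response element, and all 4 were higher with vehicle than in WT. The windows run from 250 bases before to 50 bases after a RefSeq transcript start (GRCm38.p6) and are written in the direction of the gene. Capitals mark ACGTG or GCGTG on either strand. The windows are chr6:125165724-125166023 (minus strand), chr4:150236458-150236757 (plus), chr7:46845554-46845853 (plus) and chr13:6648722-6649021 (minus).
Gapdh: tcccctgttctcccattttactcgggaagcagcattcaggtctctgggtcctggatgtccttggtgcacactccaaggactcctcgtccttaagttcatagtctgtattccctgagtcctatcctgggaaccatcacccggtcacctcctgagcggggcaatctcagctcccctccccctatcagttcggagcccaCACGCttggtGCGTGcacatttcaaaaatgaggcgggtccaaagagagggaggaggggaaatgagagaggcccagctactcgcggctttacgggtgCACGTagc
Eno1: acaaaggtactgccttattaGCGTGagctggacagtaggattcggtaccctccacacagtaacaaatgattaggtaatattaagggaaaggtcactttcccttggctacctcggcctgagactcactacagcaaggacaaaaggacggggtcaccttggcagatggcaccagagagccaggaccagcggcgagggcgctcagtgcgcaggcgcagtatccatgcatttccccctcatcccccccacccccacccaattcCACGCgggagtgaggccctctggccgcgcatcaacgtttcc
Ldha: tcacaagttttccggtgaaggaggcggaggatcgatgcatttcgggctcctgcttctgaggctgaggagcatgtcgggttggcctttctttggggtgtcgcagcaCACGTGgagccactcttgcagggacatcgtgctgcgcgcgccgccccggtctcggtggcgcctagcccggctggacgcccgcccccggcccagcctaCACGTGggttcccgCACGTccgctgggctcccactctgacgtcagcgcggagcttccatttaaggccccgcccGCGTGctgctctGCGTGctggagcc
Pfkp: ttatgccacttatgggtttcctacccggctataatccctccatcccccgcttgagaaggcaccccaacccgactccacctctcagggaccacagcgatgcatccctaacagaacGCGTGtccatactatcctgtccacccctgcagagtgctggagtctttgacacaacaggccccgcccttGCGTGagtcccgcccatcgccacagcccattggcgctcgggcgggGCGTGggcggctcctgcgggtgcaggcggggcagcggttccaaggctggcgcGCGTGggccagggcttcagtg
The Ldha window holds 7 matches, of which the CACGTG runs count on both strands, Pfkp 4, Gapdh 3 and Eno1 2. Of 30 members with an entry, 22 (73.3%) held at least 1 match, beside 43.8% of all 32851 windows of the table. Both cores hold a CG, and the windows were not matched for CG or GC content. The 4 windows shown hold 12 to 30 CG and 56.7% to 67.3% GC. The part of base composition in the difference between these shares was not tested. Gpi1, which has the smallest p of all members between vehicle and WT, held none, nor did Hk1, Aldoa, Tpi1 or Pkm. Slc2a3 has no entry. The Ldha and Gapdh windows lie 4329 and 694 bases from the outermost 5′ end of the annotated gene. A match describes the letters of the window and is not a measured binding site.

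The 3 pyruvate dehydrogenase kinases, which restrain the entry of pyruvate into the mitochondria, were all lower with AG221 than in WT and all higher with the combination than with AG221. Pdk1 (ENSMUSG00000006494, chromosome 2, 71873224 to 71903858), a HIF-1 target, had 163, 194 and 124 CPM in WT, 42.7, 82.6 and 72.7 with vehicle, 41.8, 69.05 and 36.8 with AG221, 90.7, 31.96 and 79.2 with ruxolitinib and 233, 160.3 and 142 with the combination. The vehicle, AG221 and ruxolitinib libraries lay below all WT and all combination libraries, and WT and combination overlapped. Vehicle was below WT (log2 difference -1.28 ± 0.38, edgeR adjusted p = 0.0217), and the combination above vehicle by 1.43 ± 0.38 (edgeR adjusted p = 0.0241). The combination also exceeded AG221 by 1.86 ± 0.38 and ruxolitinib by 1.41 ± 0.38 (edgeR adjusted p = 0.00427 and 0.0256), and it differed from WT by 0.15 ± 0.37, which did not pass (edgeR adjusted p = 0.827). WT and combination share the letter B, and vehicle and both single drugs the letter A, so that treatment and letter cannot be told apart here.

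Without AG221 A8 and A10 and ruxolitinib A16, Pdk1 was at 1.35 between combination and AG221 (edgeR adjusted p = 0.104), at -1.22 between AG221 and WT (0.0656) and at 1.04 between combination and ruxolitinib (0.0477). The call between combination and vehicle, which holds none of these libraries, was lost without vehicle A1 (1.20, adjusted p = 0.114), vehicle A4 (1.50, 0.0544), combination B24 (1.19, 0.11) or combination B25 (1.50, 0.0533). Vehicle against WT lost its call without vehicle A1 or A4 or WT B28 or B30.

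Pdk2 (ENSMUSG00000038967, chromosome 11, 95026258 to 95041354) had 43.2, 41.7 and 38.2 CPM in WT, 14.8, 36.7 and 22.5 with vehicle, 3.804, 16.9 and 5.06 with AG221, 31.3, 10.4 and 29.5 with ruxolitinib and 38.3, 30.5 and 36.3 with the combination. All AG221 libraries lay below WT, and A8 and A10 lay far below A9. Pdk3 (ENSMUSG00000035232, chromosome X, 93764607 to 93832201), X-linked, had 122, 117 and 121 CPM in WT, 57.8, 124 and 131 with vehicle, 16.5, 76.2 and 20.7 with AG221, 118, 42.00 and 114 with ruxolitinib and 155, 182 and 158 with the combination. AG221 was below WT, with a log2 difference of -2.26 ± 0.53 for Pdk2 and -1.67 ± 0.52 for Pdk3 (edgeR adjusted p = 0.00436 and 0.0176). The combination was above AG221 by 2.03 ± 0.53 and 2.13 ± 0.53 (edgeR adjusted p = 0.0116 and 0.00947). Without A8, A10 and A16 none of these 4 differences passed. Pdk2 was then -1.29 and Pdk3 -0.66 against WT, and they were 1.04 and 1.10 against AG221 with 1 AG221 library. With ruxolitinib the low value of both genes was that of A16, and neither gene was called against WT or vehicle.

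**Figure D3:**
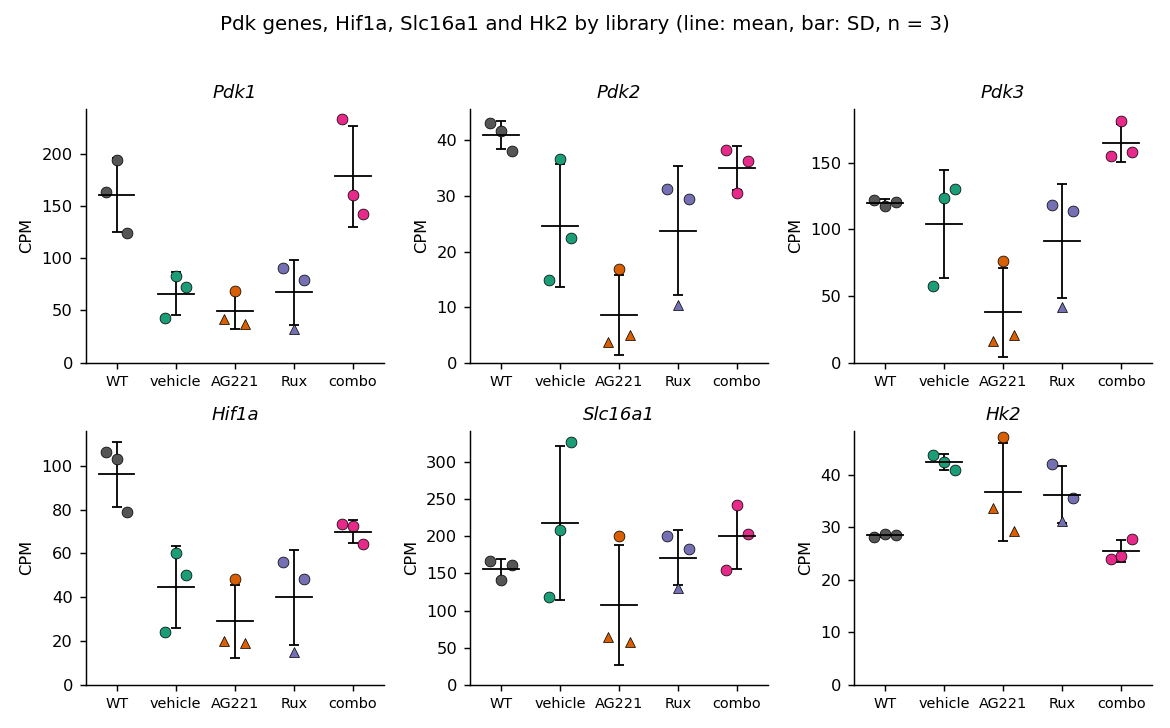
CPM (vertical axes, from 0) of Pdk1, Pdk2, Pdk3, Hif1a, Slc16a1 and Hk2 in each library of the 5 groups (horizontal axes), with a line for the mean and a bar for the SD (n = 3), and triangles for AG221 A8 and A10 and ruxolitinib A16. The triangles are the lowest points of their groups in all 6 panels, and the Pdk1 points of WT and combination all lie above those of the other 3 groups.

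The factor gene Hif1a (ENSMUSG00000021109, chromosome 12, 73901375 to 73947530) was lower than in WT with either drug alone. It had 106, 103 and 78.96 CPM in WT, 24.1, 60.3 and 50.1 with vehicle, 19.96, 48.1 and 18.95 with AG221, 56.1, 15.2 and 48.5 with ruxolitinib and 73.3, 72.4 and 64.1 with the combination. Every mutant library lay below every WT library. The difference was -1.10 ± 0.46 with vehicle, which did not pass (edgeR adjusted p = 0.0783), -1.73 ± 0.47 with AG221 (0.009) and -1.27 ± 0.46 with ruxolitinib (0.0499). The combination was above AG221 by 1.27 ± 0.46 (edgeR adjusted p = 0.0489) and below WT (log2 difference -0.46 ± 0.45), which did not pass (edgeR adjusted p = 0.553). The calls of both single drugs were lost without A8, A10 and A16 (edgeR adjusted p = 0.123 for AG221 and 0.063 for ruxolitinib, the latter at a log2 difference of -0.87), and so was that of combination against AG221 (0.52, adjusted p = 0.546).

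Its target Bnip3, a mitophagy receptor, ranged from 32.4 to 51.7 CPM in all libraries, highest in AG221 A10 and A8, and Vegfa, the endothelial growth factor, from 4.32 to 19.2 CPM. Neither was called in any comparison. Against WT, Bnip3 with vehicle was 0.13 ± 0.16 and Vegfa -0.30 ± 0.49.

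**Figure D4:**
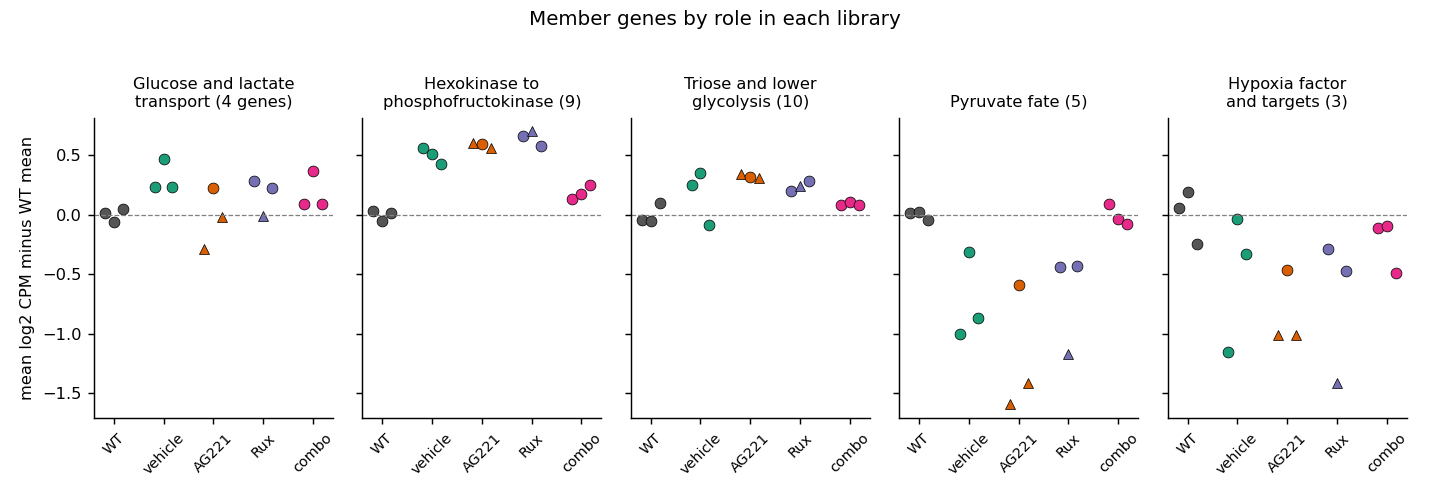
Mean log2 CPM of the genes of each role relative to the WT mean (vertical axis) in each library of the 5 groups (horizontal axis), with 1 panel per role and triangles for AG221 A8 and A10 and ruxolitinib A16. In the hexokinase to phosphofructokinase panel the vehicle, AG221 and ruxolitinib libraries lie at 0.43 to 0.70, above the combination at 0.13 to 0.25, while in the pyruvate fate panel the triangles are the lowest points of their groups.

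Neighbouring pathways were described by lists of other genes. In the pentose phosphate pathway, which branches from glucose 6-phosphate, 6 of 9 genes were higher with vehicle than in WT and none was lower (background 15.4% and 17.9%), with a median of 0.68. They included Tkt, transketolase (773 CPM against 480.5 CPM in WT, log2 difference 0.69 ± 0.13, edgeR adjusted p = 0.00402), and Pgd, 6-phosphogluconate dehydrogenase (0.69 ± 0.14, adjusted p = 0.00622), with G6pdx (0.88 ± 0.20) and Prps1 (0.88 ± 0.20). With the combination 7 of 9 were lower and 1 higher than with AG221 (background 14.3% and 18.9%), a count not made without A8, A10 and A16. Pgd was also lower with the combination than with vehicle (-0.53 ± 0.14, edgeR adjusted p = 0.0282). With the combination none was called against WT (background 1.63% and 1.61%), though the median was 0.43 beside 0.038 over all genes. The mean log2 CPM of the list relative to WT was 0.23 to 0.40 with the combination and 0.26 to 0.58 with vehicle.

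Of 27 tested genes for oxygen sensing and other hypoxia targets, 4 were higher and 1 lower with vehicle than in WT, with a median of -0.075. Beside the background of 15.4% and 17.9%, the share of higher calls in the list was near that of all genes. The higher ones included Bhlhe40, a transcriptional repressor (2.33 ± 0.49, edgeR adjusted p = 0.00627), and Car12, a carbonic anhydrase (1.29 ± 0.37, adjusted p = 0.0198). Both were lower with the combination than with vehicle, with log2 differences of -2.43 ± 0.49 and -1.30 ± 0.37 (edgeR adjusted p = 0.00657 and 0.0348). Narf, also higher with vehicle than in WT (0.87 ± 0.20, edgeR adjusted p = 0.00823), had 121 CPM with vehicle and 117 with the combination. With the combination, Narf was still higher than in WT (0.83 ± 0.20, edgeR adjusted p = 0.0399). The lower gene with vehicle was Rora (-1.78 ± 0.43, edgeR adjusted p = 0.0104), which was not called between combination and vehicle. Mxi1, a Max partner, was higher with the combination than with vehicle (1.49 ± 0.30, edgeR adjusted p = 0.00668). Among 17 other isozymes of the glycolytic steps, 2 were higher and 1, Hkdc1, lower with vehicle than in WT, near the same background. Tigar, a fructose bisphosphatase, was higher with vehicle than in WT (1.18 ± 0.28, edgeR adjusted p = 0.0107) and lower with the combination than with vehicle (-0.95 ± 0.28, adjusted p = 0.0429).

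Of 13 genes of pyruvate entry and the pyruvate dehydrogenase complex, 4 were higher and 1 lower with vehicle than in WT, beside 15.4% and 17.9% of all genes, among them the subunit gene Pdhb (0.62 ± 0.11, edgeR adjusted p = 0.00309) and the carrier gene Mpc1 (0.62 ± 0.15, adjusted p = 0.0107). None of the 13 was called between combination and vehicle. Of 14 genes for glycogen and gluconeogenesis, 3 were higher and 2 lower with vehicle, near the same background, with Gys1, glycogen synthase, at 0.71 ± 0.15 (edgeR adjusted p = 0.00664) and Pygm, muscle glycogen phosphorylase, at -3.00 ± 0.50 (adjusted p = 0.00233).

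Neutrophil and monocyte markers had their group medians in the order of the share of counts in the 31 genes, the T and NK sum had the same order and the B lineage the reverse one, and the erythroid, megakaryocyte, mast and stem lists had neither. The summed level of 11 neutrophil genes was 3479 to 3836 CPM in WT, 7849 to 12865 with vehicle, 17440 to 20527 with AG221, 12211 to 19374 with ruxolitinib and 4308 to 7743 with the combination. Most of it came from the early granule genes Mpo and Elane, whereas Ly6g, a marker of mature neutrophils, was at 0 to 2.26 CPM. The order of the group medians was WT, combination, vehicle, ruxolitinib and AG221. The summed level of 12 erythroid genes was 1687 to 1842 CPM in WT and 2086 to 7009 in the mutant groups, and the T cell marker Cd3e was at or below 1.24 CPM everywhere. Monocyte and dendritic genes (7) summed to 299 to 362 CPM in WT and 436 to 2091 in the mutant groups, and megakaryocyte genes (7) to 249 to 338 and 352 to 935. Mast and basophil genes (6) summed to 263 to 390.5 CPM in WT and 407 to 1323 in the mutant groups. The megakaryocyte median was 879 CPM with vehicle and 493 with AG221, and the mast and basophil median 912 with vehicle and 687 with AG221. The 8 T and NK genes summed to 161 to 226 CPM in WT and 366 to 763 in the mutant groups, nearly all of it from Nkg7, whereas the median difference of the 7 tested was -0.84 between vehicle and WT. Genes of the B lineage (9) summed to 647 to 1333 CPM in WT and 90.6 to 257 in the mutant groups. LSK and stem genes, 10 in all, summed to 4152 to 4579 CPM in WT and 2126 to 3561 in the mutant groups. The part of such cells in the results was not tested. Immediate early genes, which respond to cell handling as well as to signals, also moved. The 12 of them summed to 717 to 974 CPM in WT, 661 to 1199.7 with the combination and 3262 to 13423 in the other groups, with Fos at 1426 to 4975 CPM in the vehicle, AG221 and ruxolitinib groups, 33.4 to 129 with the combination and 79.8 to 126 in WT.

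**Figure D5:**
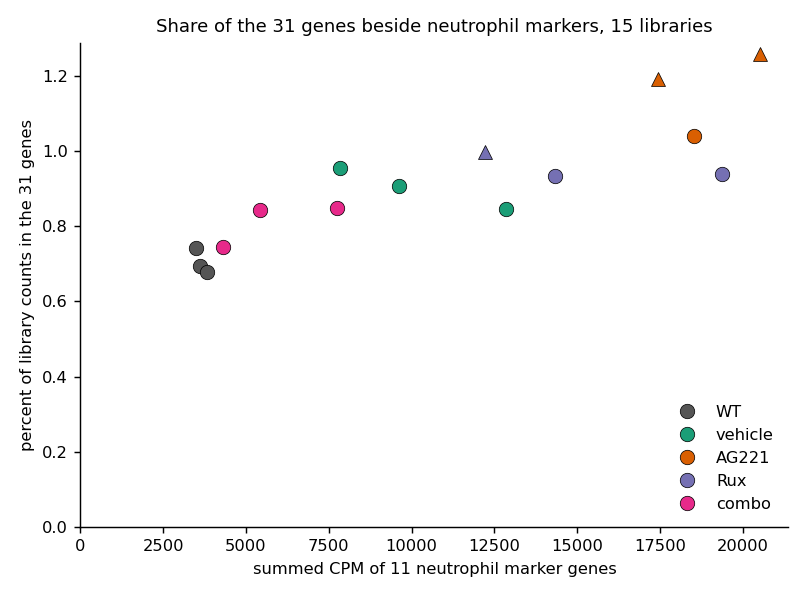
Percent of the counts of each library that fell on the 31 genes (vertical axis) beside the summed CPM of 11 neutrophil marker genes (horizontal axis), with 1 point for each of the 15 libraries, coloured by group, and triangles for AG221 A8 and A10 and ruxolitinib A16. WT is lowest on both axes and AG221 highest on the vertical axis, and ruxolitinib reaches into the AG221 range of the markers.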

How the data were processed

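RNA of CD45.2+ LSK cells was sequenced in 15 libraries, 3 per group. The deposited table gives unnormalized read counts for Ensembl genes, which the authors obtained by aligning to mm10 with STAR 2.5.1a at default settings and counting with it. The Ensembl release and the strand setting are not given in the sources used here. The authors also deposited a normalized signal, the same counts divided by 1 DESeq2 size factor per library (version 1.6.3 in the submitters' processing notes), which was checked and not tested further.

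Totals were 18836625 to 32174287 counts per library (median 25545779), and a floor of 3 counts corresponds to 0.0957 to 0.157 CPM, for counting error only. The counts were fitted in R 4.3.3 with edgeR 4.0.16: filterByExpr, TMM scaling and the quasi-likelihood test with Benjamini-Hochberg adjustment over the 17834 genes kept, threshold 0.05, over all 5 groups. Mean log2 CPM values and the GC checks used a prior count of 2, log2 fold changes are those of the fit, and the SE is the absolute log2 fold change divided by the square root of F. Deviations after ± are SEs. Symbols were taken from GENCODE M21, which matched 44585 of 45232 identifiers (647 did not match), and promoters from RefSeq. The steps were tested on simulated data.

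The 31 genes and the other lists were chosen with earlier results of these data known. All 31 genes were named, and of each other list at most the 4 called genes with the smallest p per comparison. Alternatives were DESeq2 1.42.0, RLE or upper quartile scaling, no filter or at least 10 counts in every library, GC offsets, no genes of chromosomes X and Y, the compared groups alone, and each library left out. Protein sequences are not used here.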

Additional observations from a re-analysis of the deposited data

Results flagged for a closer look

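For 10 of the 31 genes, the effect of AG221 and that of ruxolitinib did not add up to the effect of the combination, by the interaction term of edgeR's quasi-likelihood test. The term was negative on the log2 scale for Hk3 (-0.92), Gpi1 (-1.04), Pfkp (-1.02), Aldoa (-0.89), Tpi1 (-0.77), Gapdh (-0.92), Pgk1 (-0.84), Eno1 (-1.06) and Pkm (-0.76). It was positive for Pdk1, at 1.83. The adjusted p ran from 0.00798 for Gpi1 to 0.049 for Pdk1. The combination libraries carry the letter B and the other 3 groups the letter A. Without AG221 A8 and A10 and ruxolitinib A16, which leaves 1 AG221 library, the calls were lost, as were nearly all calls over all genes. The term then kept its sign for all 10 genes, from -1.20 for Hk3 to -0.35 for Tpi1 and 0.999 for Pdk1. The part of the letter and of these libraries in the term was not tested beyond this.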

How the results depend on the processing

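Alternatives that kept all libraries gave 80 counts of called genes, of which 65 were within 1.5 times the reported count, and leaving out 1 library gave 66, of which 35 were. Of 703 values of called genes under the former, 636 kept direction and call, 67 lost the call and 0 changed sign, and of 594 values with 1 library left out 393 kept the call, 201 lost it and 0 changed sign. Of 221 uncalled pairs of gene and comparison, 81 changed sign under an alternative. Calls that held in every alternative that tested the gene numbered 9 of 16 for vehicle against WT, 10 of 18 for AG221 and 10 of 17 for ruxolitinib, and 0 in the other comparisons.

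For combination against WT the count of 2 became 0 with RLE or upper quartile scaling or at least 10 counts in every library, 1 with no filter, 8 with the compared groups alone and 5 with DESeq2. For AG221 against vehicle the count of 2 became 7 with upper quartile scaling or at least 10 counts in every library, 5 with GC offsets, 10 with DESeq2, and 0 with no filter or with the compared groups alone. For combination against ruxolitinib the count of 6 became 2 with no filter and 3 with the compared groups alone, and the interaction count of 10 became 2 with the compared groups alone. Without AG221 A8 and A10 and ruxolitinib A16, chosen after the data were seen, AG221 had 1 library. Few or no calls were then made for AG221 against vehicle, combination against AG221 and the interaction, and few over all genes. The cause of these changes was not tested.

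With 1 library left out, counts ran from 10 to 18 for vehicle against WT, 15 to 19 for AG221 against WT, 10 to 15 for ruxolitinib against WT, 0 to 2 for combination against WT, 0 to 15 for AG221 against vehicle, 0 to 4 for combination against vehicle, 11 to 17 for combination against AG221, 0 to 4 for combination against ruxolitinib and 1 to 15 for the interaction. Ruxolitinib against vehicle gave 0 throughout. Calls over all genes moved as well. Without WT B30 they fell from 5937 to 1901 for vehicle against WT and from 5759 to 1910 for ruxolitinib against WT. For combination against vehicle they fell from 2226 to 1006 without vehicle A1. For combination against ruxolitinib they fell from 2217 to 1137 without combination B24. Upper quartile scaling moved the median of all genes from -0.0065 to 0.18 for AG221 against vehicle, from 0.11 to -0.18 for combination against AG221, from 0.038 to -0.16 for combination against WT and from 0.069 to -0.24 for the interaction. No paired analysis was possible because the replicate names are not shared between groups.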
